A study of Rattus norvegicus with 6 samples.

Results

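Isolated promoter regions are stretches of array coverage that stand alone on their chromosome. Probes under 1000 bp apart on rat genome build rn4 were joined into 16123 regions, and 15284 of these lay on chromosomes 1 to 20 with 3 to 99 probes. A region counted as isolated when the nearest other region, whatever its probe number, was 300 kb or more away on both sides. This rule used probe positions only and gave 703 regions, 4.60% of the 15284, holding 6592 probes. The distances are gaps in array coverage: how many genes lie in the stretches between regions was not checked, since no annotation of this build was used here. The regions are therefore called isolated, not gene-poor, and are named by coordinates, without gene names or sequence.

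DNA came from the lumbar spinal cord of 6 male rats of 220 to 250 g, collected on day 14 after surgery. The 3 sham rats had the operation alone, and the 3 CCI rats had chronic constriction injury, in which loose ligatures on the sciatic nerve give lasting neuropathic pain. Strain, age and the operated side are not given in the sources used here. Each array compared methylated DNA immunoprecipitated from 1 cord (IP, Cy5) with the input DNA of the same cord (Cy3), with no dye swap. The cord holds neurons, glia and vessels, so a change in cell makeup and a change of methylation within cells cannot be told apart, and a DNA array holds no marker of expression by which the tissue label could be checked.

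DNA methylation in mammals sits mostly on cytosines that precede a guanine. Promoters dense in such sites are commonly unmethylated, while promoters with few sites are often methylated in tissues where their gene is silent. An antibody against methylated cytosine pulls down more DNA where methylated sites are dense, so the IP/input ratio rises with the density of sites as well as with their methylation. Stretches with few genes are often late replicating and rich in repeats, and many genes found alone in such stretches act in neural development or adhesion. None of this was measured here.

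Values are log2 units relative to the median probe of the same array, so 0 is the array median and 1 unit is a doubling. The level of a region on an array is the mean of its probes, and the IP and input channels were centred in the same way, each on its own median. Probes were 45 to 60 nt long. Array designs often shorten probes in GC-rich sequence to even out melting temperature, but base composition was not measured here.

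The 703 isolated regions resembled ordinary promoter regions in build. The median isolated region held 10 probes over 1668 bp, against 10 probes over 1664 bp in the 14581 other regions. Their nearer neighbour was 481974 bp away at the median and 4623339 bp at most, against a median of 27544 bp for the others. The farther neighbour stood at a median of 982254 bp. Isolated and other regions were thus probed at like density.

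Isolated regions were spread unevenly over the chromosomes. They made up 8.50% of regions on chromosome 2 (82 of 965), 8.16% on chromosome 17 and 7.89% on chromosome 9. The share was 1.16% on chromosome 10 (15 of 1289) and 1.40% on chromosome 12 (6 of 428), the lowest of the 20 chromosomes. Isolated regions often followed each other: 280 adjacent pairs were both isolated, and 445 of the 703 had an isolated region as a neighbour. The rule itself favours such pairs, since the gap between adjacent regions counts for both, so these counts are no separate result.

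Isolated regions held slightly fewer short probes. Of their probes, 48.2% had the shortest length of 45 nt, against 51.1% in the other regions, and the share per region had a median of 45.5% against 54.5%. Regions with up to 40% of such probes were more frequent among the isolated (19.8% of them with up to 20% and 22.3% with 20 to 40%, against 16.0% and 17.5%). This matters for the signal because the level climbed with the share of 45 nt probes in both sets. Across the 703 regions, which share the 6 arrays, the Spearman rho with that share was 0.57 for the ratio, 0.78 for the IP and 0.70 for the input.

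The first question was whether isolated regions carry another IP/input ratio than other regions. Taken as they stand, their median ratio was lower on every array. It was -0.24, -0.16 and -0.15 in sham 1, 2 and 3 and -0.22, -0.18 and -0.23 in CCI 1, 2 and 3. The other regions stood at -0.14, -0.096 and -0.081 in sham and -0.13, -0.12 and -0.14 in CCI. The gap was -0.079 ± 0.015 (SD, n = 6), lower in 6 of 6 arrays. In the IP channel it was -0.27 ± 0.010 and in the input channel -0.15 ± 0.018 (SD, n = 6).

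On average the gap in ratio was smaller when regions were compared at a matched share of 45 nt probes. Each array was split into 5 bins of that share, medians were compared within bins, and the gaps were averaged with the number of isolated regions as weight. This average joins bins whose gaps differed in sign, as given below, so a small mean does not stand for small gaps in each bin. The matched gap in ratio was -0.052, -0.022 and -0.011 in sham 1, 2 and 3 and -0.016, -0.014 and -0.015 in CCI 1, 2 and 3. Sham 1 lay farthest from 0 and the other 5 arrays lay close together. The mean was -0.022 ± 0.015 (SD, n = 6; exact sign-flip permutation p = 0.031, two-sided, the smallest 6 arrays can give; Benjamini-Hochberg adjusted p = 0.031 over the 3 matched gaps). The arrays carry the same probes, so this p speaks of agreement between arrays and not of the spread between regions. Over the isolated regions the interquartile range of the ratio was 0.764, far wider than the gap.

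The sign of the matched ratio gap also depended on the processing. It was 0.0021 with normexp background correction, 0.0086 with loess, 0.013 with the median of probes and 0.0037 with dim input probes left out, so no lower ratio of isolated regions is called. The matched IP gap was -0.013 ± 0.0079 and the matched input gap -0.046 ± 0.012 (SD, n = 6; exact sign-flip permutation p = 0.031 for both). These turned to 0.052 and 0.074 when dim input probes were left out.

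The bins did not move together. Among the 139 isolated regions with the fewest 45 nt probes (up to 20%), the ratio was -0.73 ± 0.13 against -0.87 ± 0.13 in other regions, a gap of 0.14 ± 0.038 (SD, n = 6) that was positive on all 6 arrays, between 0.084 and 0.19. Their IP signal was higher by 0.18 ± 0.027, while the input differed by -0.012 ± 0.042. Most probes of these regions are longer than 45 nt, and such probes were often dim. Over all isolated regions, 38.0% of input values at 46 to 59 nt and 12.5% at 60 nt were well above background. In the other 4 bins the mean gap was negative. With 20 to 40% of 45 nt probes it was -0.080 ± 0.033, and with 40 to 60% it was -0.070 ± 0.028. It was -0.028 ± 0.012 with 60 to 80%, and -0.072 ± 0.089 with over 80%, where CCI 3 alone was positive at 0.043 (SD, n = 6 in each).

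The middle bin stood out by its signals. Its 172 isolated regions had an IP signal lower by 0.17 on the log2 scale than its 4111 other regions (-0.13 ± 0.026 against 0.039 ± 0.011, SD, n = 6) and an input lower by 0.18 (0.24 ± 0.068 against 0.42 ± 0.051). Both channels were thus dimmer there, and the ratio gap was smaller than either. The bin gaps are given without a test of their own.

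**Figure D1:**
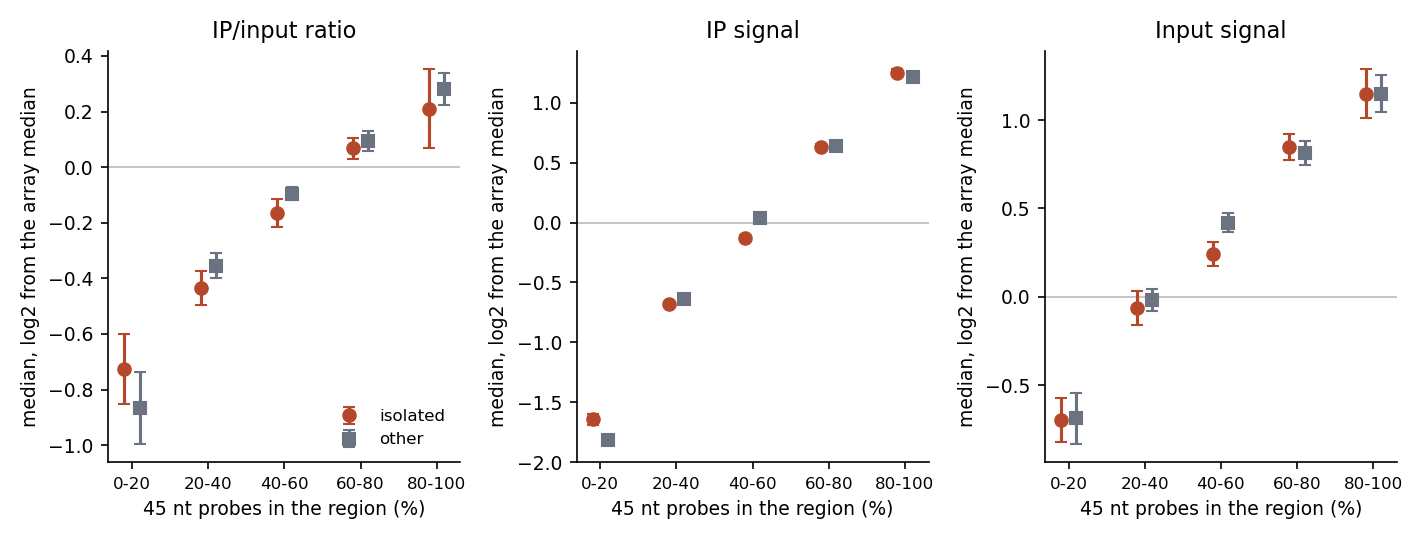
Median IP/input ratio, IP signal and input signal (log2 from the array median, vertical) of isolated regions (circles) and other regions (squares) in 5 bins of the share of 45 nt probes (horizontal, %). Points are means over 6 arrays and bars their SD. All 3 measures climb with the share, and the sets lie close together within a bin, with isolated regions above the others in ratio only in the bin up to 20% (-0.73 against -0.87).

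Single probes were also compared by length class. At 45 nt the median ratio was 0.40 ± 0.074 for 3180 probes in isolated regions and 0.42 ± 0.063 for 72346 probes in other regions (SD, n = 6). Between 46 and 59 nt it was -0.35 ± 0.087 against -0.30 ± 0.076. At 60 nt it was -1.71 ± 0.52 in both sets. The last value ran from -1.13 on CCI 2 to -2.33 on sham 1 in isolated regions, and only 12.5% of input values and 22.0% of IP values were well above background there, so it rests largely on spots at the floor of the processed signal. Signals were well above background for 68.9% of input and 91.6% of IP values at 45 nt.

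Dimness therefore limits the isolated regions slightly more than the rest. In the input, the share of their probes that were bright enough to stand well above background ran from 35.6% on sham 1 and 35.6% on CCI 3 through 42.4% on CCI 1, 54.9% on sham 2 and 59.6% on sham 3 to 67.5% on CCI 2. In the other regions the range was 37.4% to 70.8%. In the IP channel the range was 69.4% to 72.7%, against 72.4% to 75.3%. No probe was well above background in the input of all arrays in 71 isolated regions (10.1%), against 7.12% of the others, and 384 isolated regions kept at least 3 such probes. The part of dim spots in the gaps was not tested beyond the filter given above.

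Distance beyond the 300 kb limit was followed in 3 classes, chosen with values in view and given without a test. With a nearer neighbour 300 to 500 kb away, 370 regions differed from the rest at matched share by 0.0040 ± 0.017 in ratio (SD, n = 6). The 238 regions at 500 to 1000 kb differed by -0.031 ± 0.028, with sham 1 lowest at -0.086. The 95 regions at 1000 kb or more stood at -0.41 ± 0.067, a matched gap of -0.10 ± 0.024. Their gap was negative on all 6 arrays: -0.12, -0.10 and -0.083 in sham 1, 2 and 3, and -0.079, -0.11 and -0.14 in CCI 1, 2 and 3.

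The 95 most remote regions were also the poorest in 45 nt probes, at 43.0% of probes against 49.2% in the class at 300 to 500 kb. Their matched IP gap was -0.16 ± 0.018 and their matched input gap -0.027 ± 0.029 (SD, n = 6). The ratio gap was -0.023 with normexp, whose offset makes log ratios smaller by design. It was -0.053 with loess, where 1 or more arrays were positive (range -0.11 to 0.036), and -0.070 with the median of probes. It was -0.11 in the 42 regions that kept 3 bright input probes, but there the IP gap was 0.064 and the input gap 0.20. The direction of the ratio gap was thus kept on average and that of the channels was not.

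At the limit the ratio showed no step, while in the channels the class just outside differed from the classes on both sides of it. The 452 regions at 200 to 300 kb had a matched ratio gap of -0.022 ± 0.011, a value within the span of the isolated classes. Their matched input gap was 0.085 ± 0.016, positive on all 6 arrays, against -0.043 ± 0.023 at 300 to 500 kb, negative on all 6. Their matched IP gap was 0.052 ± 0.0090, against 0.0080 ± 0.011 at 300 to 500 kb (SD, n = 6). In the 1509 regions at 100 to 200 kb the input gap was -0.0064 ± 0.014 and the IP gap -0.014 ± 0.0056 (SD, n = 6). Among closer classes the ratio gap ran from -0.046 ± 0.0087 (4693 regions at 10 to 30 kb) to 0.042 ± 0.0092 (4907 regions at 30 to 100 kb; SD, n = 6). Ratio shifts between -0.046 and 0.042 were thus found in classes that are not isolated. The gap of -0.10 in the regions at 1000 kb or more lay outside that range. The Spearman rho between ratio and distance to the nearer neighbour was -0.094 over the 703 isolated regions and 0.0023 over 14543 other regions.

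**Figure D2:**
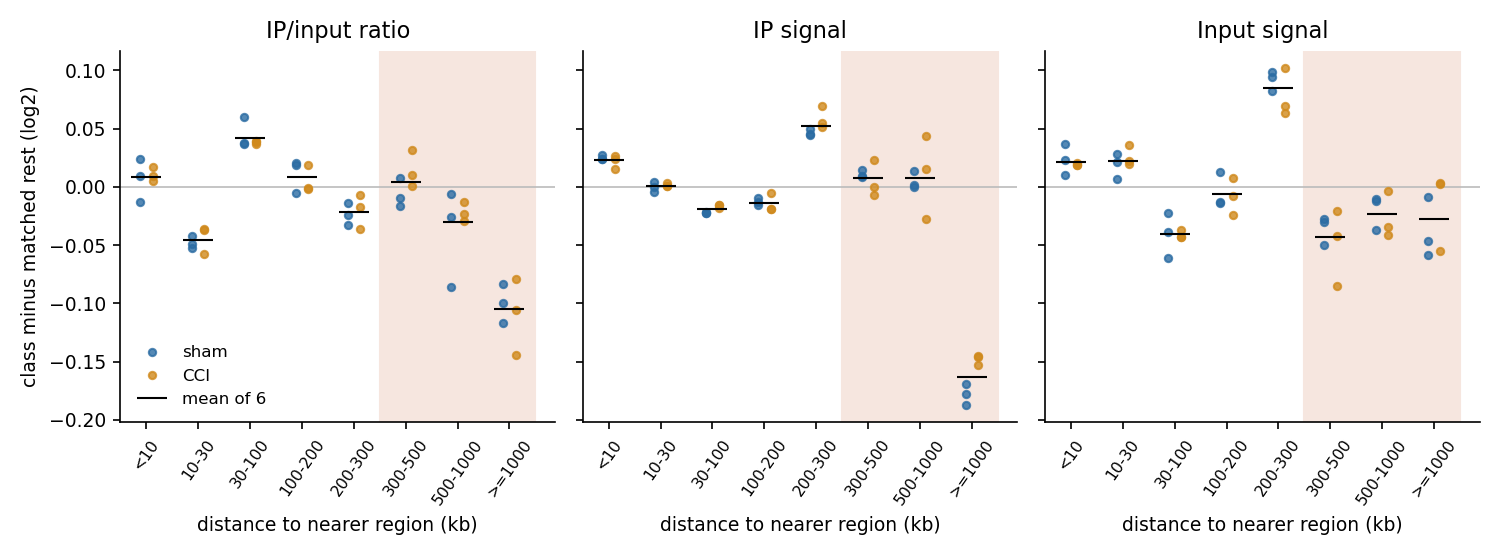
Difference between a distance class and all remaining regions at matched share of 45 nt probes (log2, vertical) for 8 classes of distance to the nearer region (kb, horizontal); each point is an array, bars are means of 6, and the shaded classes are isolated. The ratio gap of the regions at 1000 kb or more is negative on all 6 arrays (mean -0.10), and the other classes lie between -0.046 and 0.042 on average.

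At the limit itself, the last regions inside and the first outside were alike in kind. The region chr12:5793353-5795102 had its nearer neighbour 300682 bp away and a ratio of -0.31 ± 0.047 (SD, n = 6). The next inside were chr13:66955064-66956698 (300784 bp, -0.71 ± 0.14) and chr5:5747979-5748812 (300897 bp, 0.070 ± 0.085). Just outside lay chr4:94937181-94938740 (299874 bp, -0.048 ± 0.27). The pair chr3:66819924-66821423 and chr3:67121127-67122879, each the nearer neighbour of the other at 299704 bp, stood at -0.18 ± 0.17 and -1.14 ± 0.29. These values overlap, and members of such a pair can differ widely.

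The 5 regions farthest from any other were chr13:22854944-22856697, chr14:57323399-57325146, chr19:5684614-5686293, chr5:44726805-44728459 and chr6:119568066-119569749. The first had neighbours 4.62 Mb and 5.85 Mb away and a ratio of -0.61 ± 0.11 (SD, n = 6). The second, with 4.43 Mb and 6.71 Mb of uncovered sequence around it, stood at -0.23 ± 0.29, and its CCI values ran from -0.72 on CCI 1 to -0.016 on CCI 2. The remaining 3, at 3.46 Mb, 3.14 Mb and 2.85 Mb, stood at 0.23 ± 0.14, -0.22 ± 0.16 and -0.50 ± 0.066. Extreme isolation thus went with levels on both sides of the array median.

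Within a region, levels were compared by distance from the centre, over 674 isolated and 13783 other regions of 1000 to 2500 bp. The direction of transcription is unknown for these regions, so both sides were folded together. In other regions the ratio was near 0 at the centre (-0.00051 ± 0.013 within 100 bp) and highest at 400 to 500 bp (0.092 ± 0.019). In isolated regions it was -0.073 ± 0.031 at the centre, -0.15 ± 0.038 at 100 to 200 bp, 0.11 ± 0.019 at 500 to 600 bp and -0.23 ± 0.041 at 700 to 800 bp (SD, n = 6). The share of 45 nt probes within 900 bp had its low point at the same distance, 39.2% at 700 to 800 bp against 46.1% in other regions.

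The lower values at 700 to 800 bp and at 100 to 200 bp were also seen with probe length held fixed. Among 45 nt probes the ratio there was 0.21 ± 0.077 in isolated regions (189 probes) and 0.41 ± 0.053 in other regions (5092 probes). At 100 to 200 bp it was 0.28 ± 0.081 against 0.42 ± 0.058, and at 500 to 600 bp it was higher in isolated regions, 0.54 ± 0.10 against 0.45 ± 0.075 (SD, n = 6). The profile of the isolated regions was more jagged than that of the others, and each of its points rests on far fewer probes. Beyond 900 bp isolated regions had 15 probes, too few to plot, with a ratio of -0.71 ± 0.10 (SD, n = 6) against -0.15 ± 0.053 for 619 probes in other regions. No test was run on these points.

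**Figure D3:**
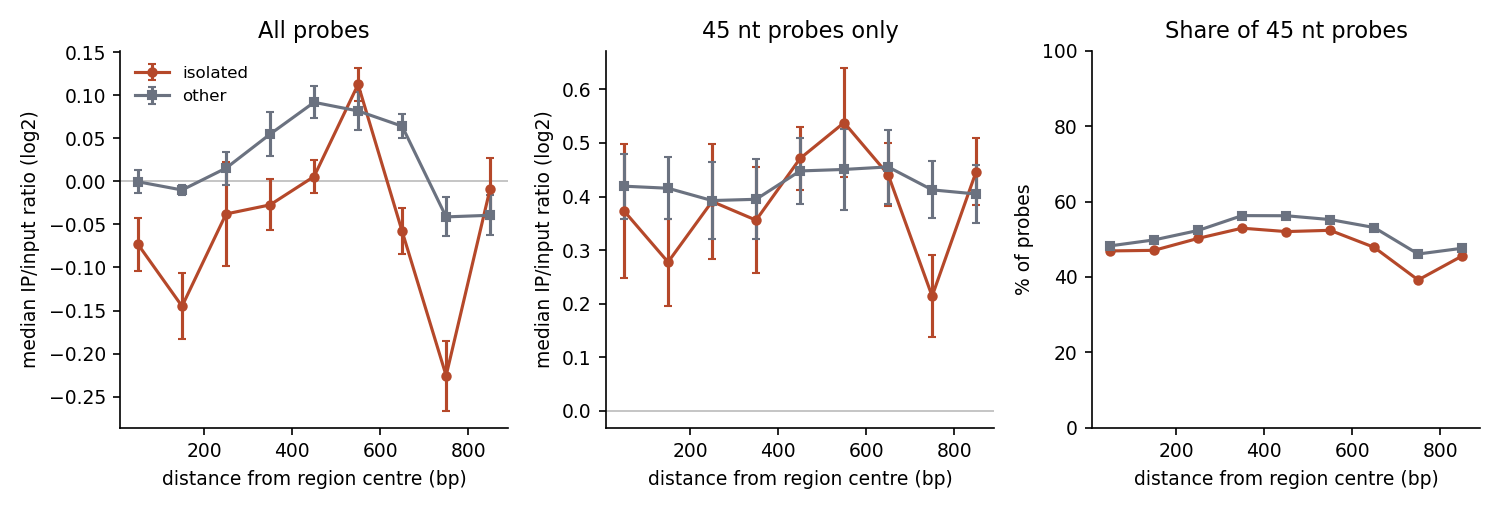
Median IP/input ratio of all probes (left) and of 45 nt probes alone (middle), and share of 45 nt probes (right, %), by distance from the region centre up to 900 bp, for isolated regions (circles) and other regions (squares); bars are SD over 6 arrays. Among the points drawn, isolated regions are lowest at 700 to 800 bp (-0.23), where 39.2% of their probes are 45 nt long.

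The isolated regions differed among themselves far more than from other regions. Their ratios, averaged over 6 arrays, ran from -3.21 to 1.34, with 5th and 95th percentiles of -1.25 and 0.59. In other regions these percentiles were -1.28 and 0.71. Of the isolated regions, 340 lay below the array median on all 6 arrays, 151 lay above it on all 6 and 212 had both signs. A ratio of 1 or more was measured in 5 of them (0.711%), against 179 of the others (1.23%), and a ratio under -2 in 4 (0.569%), against 100 (0.686%). The upper end was thus thinner and the lower end about as full.

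The 5 isolated regions with the highest ratio, given as a description, were made up mostly of 45 nt probes. The highest was chr1:256279071-256280231, with 7 of 7 probes at 45 nt and neighbours 1.72 Mb and 2.61 Mb away. It measured 1.22, 1.29 and 1.55 in sham 1, 2 and 3 and 1.14, 1.23 and 1.63 in CCI 1, 2 and 3, so the groups overlapped fully. Its IP signal was 1.95 ± 0.042 and its input 0.87 ± 0.23 (SD, n = 6). The region chr1:198166058-198167684 stood at 1.27 ± 0.28, with sham 1 apart at 0.79, and chr18:17613924-17615578 at 1.09 ± 0.16. The regions chr5:163340558-163342292 and chr7:110267048-110268816 stood at 1.06 ± 0.16 and 1.03 ± 0.22.

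The 5 with the lowest ratio differed in their IP and input signals. In chr1:48250929-48252632, all 9 probes were well above background in the input of every array and the input stood 2.30 ± 0.16 above the array median, with the IP at -1.17 ± 0.096. Its ratio was -2.92, -3.36 and -3.33 in sham 1, 2 and 3 and -3.15, -3.23 and -3.23 in CCI 1, 2 and 3. It was the single region of 24 isolated ones with an input of 2 or more whose ratio lay under -2. The region chr2:92165713-92167426 (-2.95 ± 0.17) likewise had a raised input, 1.16 ± 0.13, and an IP of -2.06 ± 0.069 (SD, n = 6).

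The remaining 3 had low IP signals and inputs below the array median. The region chr6:146987029-146988646 stood at -2.15 ± 0.25 with an IP of -3.51 ± 0.050, and 1 of its 10 probes was well above background in the IP of each array. The regions chr14:48544582-48544942 (3 probes, -2.23 ± 0.25) and chr12:732061-733804 (10 probes, none at 45 nt, -1.94 ± 0.24) had IP signals of -2.56 ± 0.062 and -2.59 ± 0.062 (SD, n = 6). Where a probe was not well above background in the IP its ratio is an upper bound, and where neither channel was, it gives no bound.

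Between animals the levels of isolated regions repeated closely in the IP and less so in the input. Over the 703 regions, which are not independent replicates, correlations between arrays ran from 0.996 to 0.999 in the IP, from 0.948 to 0.972 in the input and from 0.887 to 0.938 in the ratio. In other regions the ratio gave 0.905 to 0.946. The SD of the ratio within a group had a median of 0.168 in isolated regions and 0.153 in the others. The ratio of an isolated region was thus slightly less repeatable.

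The second question was whether the isolated regions differed between CCI and sham rats. No isolated region passed the test. In a limma fit of all 16023 regions with at least 3 probes, 0 of the 703 were called at an adjusted p under 0.05, against 0% of all regions. Every isolated region had a limma adjusted p of 1.00 after rounding. Without adjustment, 22 isolated regions (3.13%) had a limma p under 0.05, against 2.63% of all regions. Of these, 8 had a higher ratio in CCI (1.14%, against 0.549% of all regions) and 14 a lower (1.99%, against 2.08%). The total is near that of all regions. The share higher in CCI is above it, but it rests on 8 regions that share the same arrays. Counted by sham and CCI values that did not overlap, the share higher in CCI was 2.42%, against 2.5% of all regions. The split depended on the scaling: 21 of 27 were higher in CCI with loess. The share of all regions under that setting is not given here, so whether it moved alike cannot be read.

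The size of the differences was small throughout. Over the isolated regions the CCI minus sham difference had a median of -0.015, with 5th and 95th percentiles of -0.23 and 0.19. Over all regions these were -0.021, -0.24 and 0.17. The 95% interval of a single isolated region, not adjusted for the number of regions, reached 0.29 to either side at the median. A change of less than that size in 1 region would not be resolved. Larger differences, up to 1.40-fold, were not called after adjustment either. The difference lay above 0 in 317 of the 703 (45.1%), against 42.8% of all regions. Complete separation of the 3 sham from the 3 CCI values was seen in 44 isolated regions (6.26%), against 7.15% of all regions. Of the isolated regions, 17 were separated and higher in CCI (2.42%, against 2.5% of all regions). Another 27 were separated and lower (3.84%, against 4.65%).

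As a set, the isolated regions did not separate the groups. The sham arrays had a median ratio of -0.18 ± 0.052 and the CCI arrays one of -0.21 ± 0.022 (SD, n = 3; two-sided exact permutation p = 0.5), and the sham values, from -0.24 to -0.15, enclosed the CCI values. For the matched gap to other regions, sham gave -0.028 ± 0.021 and CCI -0.015 ± 0.0010 (SD, n = 3; two-sided exact permutation p = 0.4). With 3 arrays against 3 such a test cannot go below 0.1. Scan and group were partly tied: the 3 sham arrays and CCI 3 share a scan, and CCI 1 and CCI 2 share the other. Within the first scan the set's difference was -0.040, and the second scan holds no sham array and gives no value.

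The 10 regions with the lowest p among those without overlap, 5 in each direction, are described without a call. In chr17:39334543-39336107 (10 probes, 6 at 45 nt, nearer neighbour at 303 kb), the ratio was 0.47, 0.57 and 0.33 in sham 1, 2 and 3 and 0.10, 0.13 and -0.027 in CCI 1, 2 and 3. The lowest sham value lay above the highest CCI value. The difference was -0.39 ± 0.12 (SE), or 1.31-fold lower, with an unadjusted p of 0.00636 and an adjusted p of 1.00 in limma. On chromosome 20, chr20:26518344-26520070 stood at 0.28, 0.12 and 0.10 in sham and at -0.19, -0.15 and -0.17 in CCI, a difference of -0.34 ± 0.11 (SE). The CCI values there were tightly grouped and all lay below 0.

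The other 3 with lower ratios in CCI were chr9:60247814-60249543, chr1:221405415-221407168 and chr7:96871156-96872801. The first stood at 0.25 ± 0.072 in sham and -0.075 ± 0.046 in CCI, and the second at -0.16 ± 0.096 and -0.48 ± 0.11 (SD, n = 3). The last stood at 0.64 ± 0.036 in sham and 0.34 ± 0.19 in CCI, with CCI 3 apart at 0.12. Without CCI 3 the difference of this last region shrank from -0.30 to -0.19. In 4 of these 5 regions, under 50% of probes were well above background in the input on average, and in the first region named above that number ran from 0 of 10 probes to 9 across arrays.

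Among regions with higher ratios in CCI, chr18:5148176-5149066 (4 probes, neighbours 872 kb and 785 kb away) had the lowest p. It measured -1.64, -1.44 and -1.65 in sham 1, 2 and 3 and -1.14, -1.24 and -1.26 in CCI 1, 2 and 3, a difference of 0.36 ± 0.12 (SE) with an unadjusted p of 0.00875 and an adjusted p of 1.00 in limma. However, 2 of its 4 probes were well above background in the IP on 0 and 1 of 6 arrays, and these had the largest differences, 0.34 and 0.71, so the region's value rests largely on ratios that are bounds. The region chr8:53120085-53121805 stood at -0.74, -0.88 and -0.79 in sham 1, 2 and 3 and at -0.46, -0.48 and -0.46 in CCI 1, 2 and 3, and 9 of 9 probes were higher in CCI. Its 2 largest probe differences, 0.75 and 0.67, came from probes well above background in the IP on 0 of 6 arrays. With dim input probes left out, the difference of this region fell from 0.34 to 0.17. All 8 probes of chr5:144841182-144842734 were higher as well, with the region at 0.090 ± 0.089 in sham and 0.40 ± 0.15 in CCI. Among these, the probe with a difference of 0.49 was well above background in neither channel on any array. The last 2, chr17:79378315-79379871 and chr18:50408495-50409875, differed by 0.30 each.

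With scan as a block all 10 kept their direction, which picking regions without overlap had fixed in advance, but 2 moved by over 1.5 times. The difference in chr18:50408495-50409875 shrank to 0.10 and that in chr7:96871156-96872801 grew to -0.52. These values, like all 10 in this setting, rest on CCI 3 alone in the scan that it shares with the sham arrays.

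**Figure D4:**
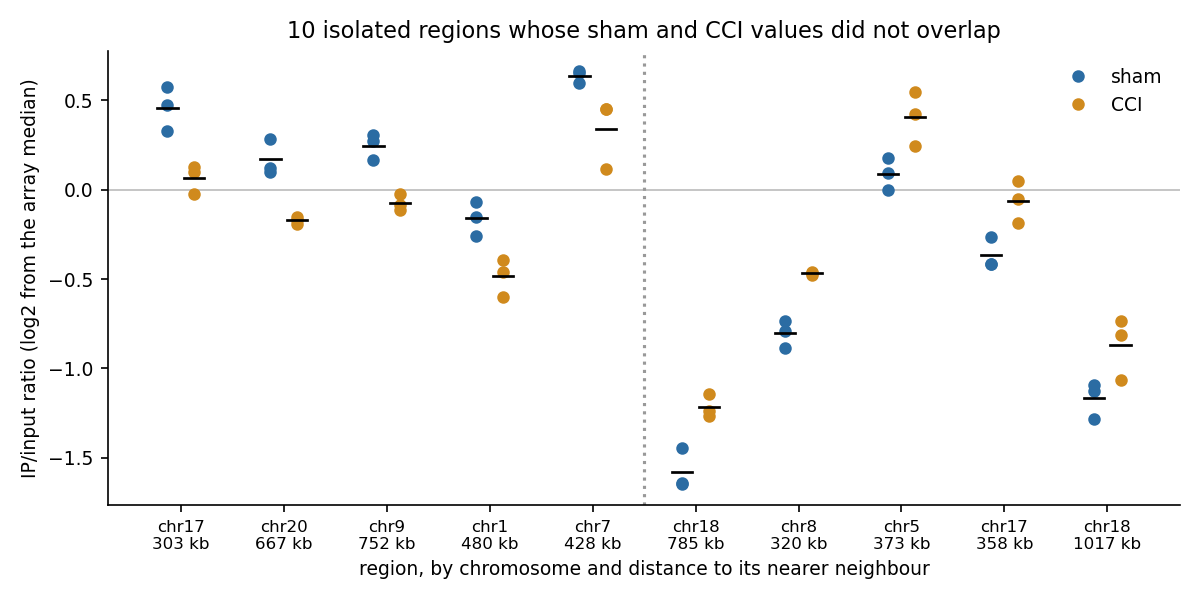
IP/input ratio (log2 from the array median, vertical) of the 10 isolated regions with the lowest unadjusted p among those without overlap, by chromosome and distance to the nearer neighbour; points are arrays and lines group means (n = 3). Differences run from -0.39 to 0.36, and none passed the adjusted threshold.

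In these 10 regions the difference lay mainly in the input channel. For the 5 with lower ratios, the input signal was higher in CCI by 0.22 to 0.29, while the IP differed by -0.057 to 0.021. For the 5 with higher ratios, the input differed by -0.40 to -0.24 and the IP by -0.034 to 0.14. For example, the input of chr17:39334543-39336107 stood at -0.85 in sham and -0.56 in CCI, against -0.69 and -0.73 in the IP. The region with the largest IP difference of the 10, chr5:144841182-144842734, had 0.13 in sham and 0.26 in CCI in that channel.

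The same held over all isolated regions. The CCI minus sham difference had a median size of 0.087 in the input and 0.036 in the IP, and the input difference was the larger in 522 of 703 regions (74.3%), against 75.7% of other regions. Across the isolated regions the difference in ratio had a Spearman rho of -0.87 with the difference in input and of 0.18 with that in the IP (values of the same arrays, the ratio being made from both). In other regions these were -0.90 and 0.16. The input is the unselected DNA of the cord.

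**Figure D5:**
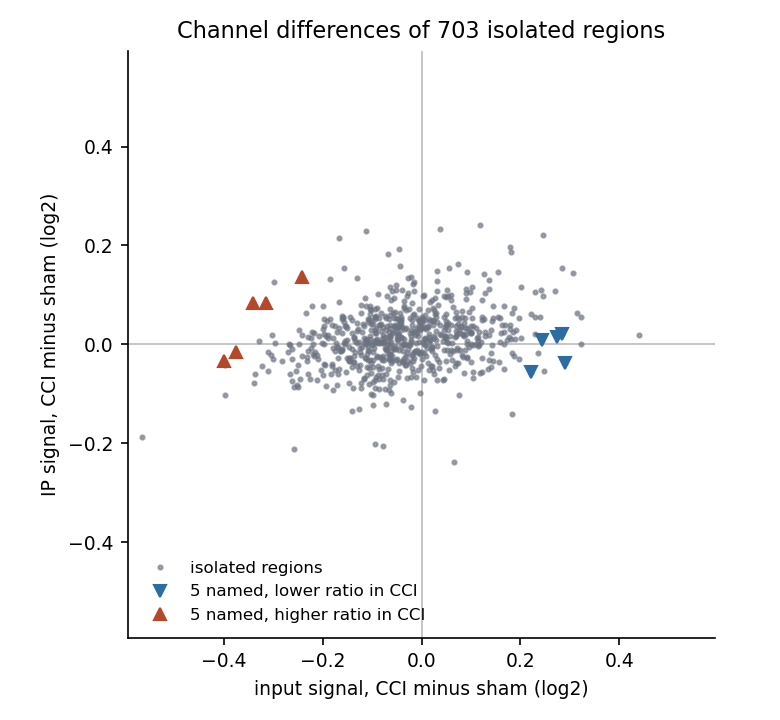
CCI minus sham difference in the IP signal (log2, vertical) against that in the input signal (log2, horizontal) for the 703 isolated regions, each point a region, with equal scales. The cloud is wider along the input axis (median size 0.087 against 0.036), and the 10 named regions (triangles) lie well to the left and right of 0.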

How the data were processed

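Intensity values were read from the authors' scanner files, which per the file headers came from Agilent Feature Extraction 11.0.1.1 on an array design on rn4. The deposited processed intensity was background-subtracted and scaled per dye by that software. The deposited log10 ratio was 0 for 3.64% to 15.8% of probes per array, so both processed channels were used to form log2 ratios. Other deposited columns used were median and background intensity and spot flags (score of 0 or 1).

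Of 179525 spots, 6856 control spots were left out. Spots flagged as outliers were dropped (656 probes, counting any array), each array was centred on its median with no loess or quantile step, and probes were averaged per region. CCI and sham were compared in limma 3.58.1 (R 4.3.3; lmFit, eBayes) with Benjamini-Hochberg adjustment over 16023 regions at 0.05. Levels were compared with exact permutation tests over arrays. The scripts were tested on simulated data. Arrays are separate animals per the series' design text, and their number limits the precision. The alternatives were other background corrections, normalizations, filters, blocks, distances and matchings, and arrays left out.

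Named were 5 regions per direction with the lowest p and no overlap, the 5 highest and 5 lowest in ratio, the 5 most remote, and 3 on each side of the distance limit. Members, lists and tests were chosen with earlier results of these data known. The distance classes, the profile, the comparison by probe length and the comparison of channels were added after the values were seen. Sequences and gene names of build rn4 were not used here.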

Additional observations from a re-analysis of the deposited data

How the results depend on the processing

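In limma, 0 isolated regions were called under each setting run, including each array left out (0 to 0), and without the 3 arrays of dimmest input (sham 1, CCI 1 and CCI 3, a setting chosen after seeing the data). The 22 at an unadjusted p under 0.05 became 42 with scan as a block, 12 of 384 with dim input probes left out and 9 with a distance of 500000 bp, and ran from 13 (without sham 2) to 41 (without sham 1). Against 8 of 22, those higher in CCI were 21 of 27 with loess and 6 of 30 with normexp. They were 12 of 22 with the median of probes and 10 of 20 with quantile. Shares of all regions under these settings are not given here, so these counts cannot be set against the whole array. The replicate block gave 24 regions and left both differences between groups as they were. Correlations of same-numbered deviations over isolated regions were 0.145, 0.207 and 0.0398, so the numbers were not taken as pairs. The matched ratio gap of -0.022 ran from -0.024 to -0.016 without an array, where too few arrays are left for a p under 0.05, and was -0.016 without the 3 dim arrays. It was -0.051 at 500000 bp, and reversed to 0.0021 with normexp, 0.0086 with loess, 0.013 with the median of probes and 0.0037 with dim input probes left out. The matched IP gap of -0.013 ran from -0.015 to -0.011 without an array, grew to -0.050 with 10 bins and -0.035 at 500000 bp, lost its call with the median of probes (-0.0044), merging at 2000 bp (-0.0096) and matching on probe count (-0.0028), and reversed with dim probes left out (0.052) and at 200000 bp (0.021). The matched input gap of -0.046 ran from -0.049 to -0.043 without an array, lost its call with normexp (-0.0062), and reversed with dim probes left out (0.074) and at 200000 bp (0.012). The group difference in the matched ratio gap, 0.014, ran from 0.0018 to 0.022 without an array and reversed to -0.00055 with dim probes left out and to -0.00096 without matching. The median difference of the isolated regions, -0.025, ran from -0.055 to -0.0078 without an array and reversed with loess (0.012), the median of probes (0.037) and dim probes left out (0.011). The causes were not tested. The 10 named differences kept their direction in every setting that gave them a value. Where arrays were left out or a block was added, picking regions without overlap had fixed that direction in advance. With normexp the differences fell to 0.0994 to 0.379 times the values given. Its offset of 50 makes log ratios smaller by design. They ran from 0.445 to 1.97 times with the median of probes, 0.900 to 1.73 times with loess and 0.355 to 1.27 times without the 3 dim arrays. With dim input probes left out, the 2 that could be computed were 0.314 and 0.495 times.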

Other observations

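Adjacent regions were compared for likeness in ratio, after the median of the same bin of 45 nt share was taken off. Over the 317 closest pairs, 1 to 3 kb apart, the Spearman rho was -0.068, and over 1349 pairs at 3 to 10 kb it was 0.091. Over 3515 adjacent pairs 10 to 30 kb apart it was 0.094. It was 0.061 over 5107 pairs at 30 to 100 kb, 0.022 over 1402 pairs at 300 to 1000 kb and -0.13 over 447 pairs farther apart. The 280 pairs in which both regions were isolated gave -0.031. These are descriptions over pairs that share arrays and regions, and none is given as a finding.

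Levels by chromosome, which rest on 6 to 82 isolated regions each, were highest on chromosome 19, at 0.15 ± 0.090 (SD, n = 6) over 19 regions with 67.6% of probes at 45 nt. They were lowest on chromosome 11, at -0.46 ± 0.057 over 26 regions with 43.6% at 45 nt.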
